A study of Mus musculus with 24 samples.

Results

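Genes that differed between Kdm6b-cKO and WT nuclei of the cortex at postnatal day 30 (P30) were sought in 12 of the 24 RNA sequencing libraries of the study, 6 of each genotype. Genes entered if their FPKM averaged 1 or more across these 12 libraries, which held for 13289 of the 25135 genes in the table. FPKM count sequenced fragments per kilobase of a gene's transcript, scaled to the size of the library. Nuclei of the Emx1 lineage, tagged by the SUN1-GFP reporter, were sorted from the cortex of mice on a C57BL/6 background. WT animals carried Kdm6b wt/wt, Kdm6b-cKO animals carried Emx1-Cre with Kdm6b f/f, and both genotypes carried SUN1-GFP. The study names Emx1-Cre in the Kdm6b-cKO genotype only, but describes the reporter as marking Emx1 progeny in both. The Emx1 lineage holds cortical glutamatergic neurons, astrocytes and a share of the oligodendrocytes, and a sorted library pools all of them. In such bulk samples, fewer cells of a type and less RNA per cell cannot be told apart. No label says that libraries of a genotype came from separate animals, so the p-values measure the spread between these libraries.

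KDM6B removes the repressive methyl marks that Polycomb complexes place on lysine 27 of histone H3. Oligodendrocytes arise from precursors, pass through a pre-myelinating stage, and then switch on the proteins, lipids and gap junctions with which they wrap and feed axons. Neurons of the same lineage use glutamate, and their release machinery, receptors and channels are transcribed alongside the enzymes of energy and lipid metabolism.

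The 12 libraries differed in depth and in ribosomal RNA, within and between the genotypes. Effective depth, read from the steps of 1 read in low FPKM values, ranged from 5110000 to 8300000 reads in WT and from 1940000 to 8030000 in Kdm6b-cKO. Rn45s, the precursor of ribosomal RNA, lay below 1000 FPKM in 1 WT library (450.1 FPKM) and in 3 Kdm6b-cKO libraries (174.9 to 208.7 FPKM). It lay above 1000 FPKM in the other 5 WT libraries (1629 to 4027 FPKM) and in the other 3 Kdm6b-cKO libraries (3034 to 25878 FPKM), and those 3 were also the shallowest, at 1940000 to 2660000 reads. These classes are called low and high below; no label names them as a batch. Kdm6b itself, at chr11:69212010-69227177 (mm9), ranged from 16.9 to 26.4 FPKM in WT (median 20.6) and from 17.5 to 28.1 FPKM in Kdm6b-cKO (median 24.4), so the FPKM over the whole gene did not separate the genotypes (limma, log2 difference 0.12 ± 0.17 SE, adjusted p = 0.828). The FPKM cover the whole gene, and whether a floxed exon was lost cannot be read from them. By qRT-PCR of sorted nuclei, a separate measurement, the study reported an efficient loss of Kdm6b mRNA in Kdm6b-cKO. In all 12 libraries the 4 Y-linked genes checked were above Xist, which reached at most 0.851 FPKM.

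GABAergic neurons do not belong to the Emx1 lineage, and their markers varied widely between the libraries. The 20 markers summed to 61.4 to 594 FPKM in WT (median 135) and to 247 to 438 FPKM in Kdm6b-cKO (median 356). WT libraries 0 and 1 held 594 and 398 FPKM and the other 4 WT libraries held 61.4 to 136 FPKM, so all 6 Kdm6b-cKO libraries lay above those 4. Gad1, which makes GABA, ranged from 2.16 to 23.5 FPKM in WT (median 4.02) and from 11.0 to 23.7 FPKM in Kdm6b-cKO (median 15.2). No GABAergic marker was at 0 in every library, 7 of the 20 were below the filter, and none of the 13 tested passed (median log2 difference 1.54). The sums of the microglia markers (17.2 to 70.9 FPKM in WT and 32.8 to 76.9 in Kdm6b-cKO) and of the meningeal, choroid plexus and ependymal markers (6.37 to 36.5 and 21.5 to 41.1 FPKM) overlapped between genotypes, and 0 of their 11 and 6 tested genes passed. No member of these lists was at 0 in all 12 libraries.

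**Figure D1:**
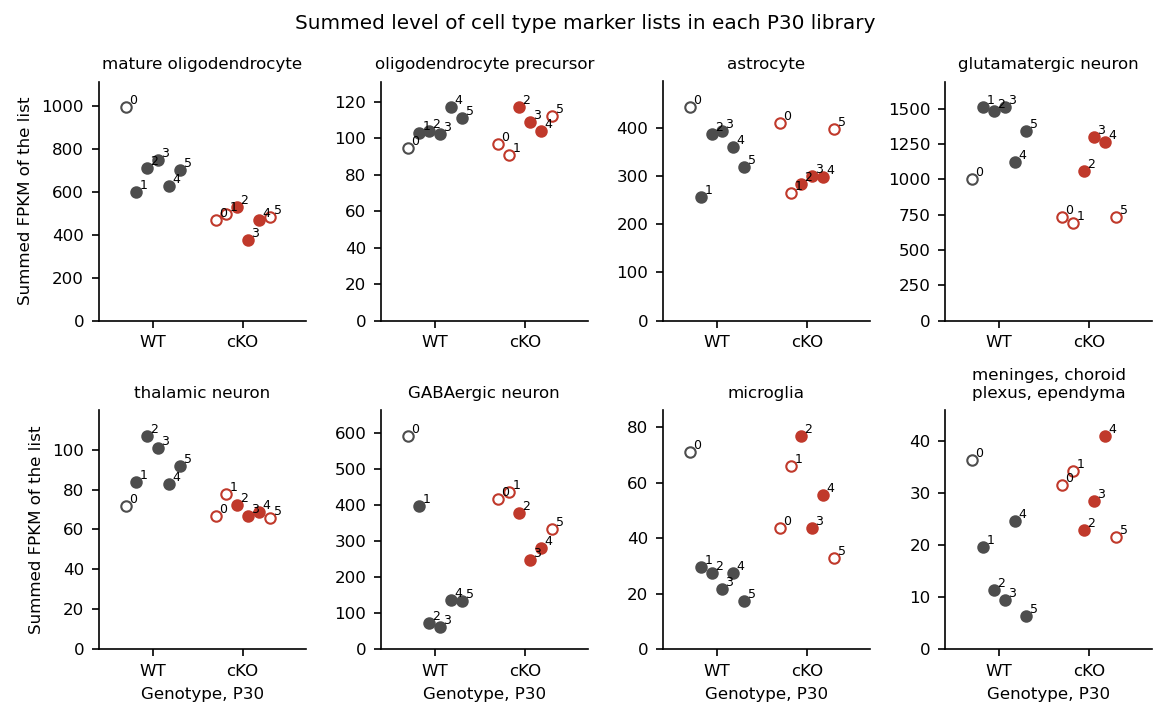
Each point is the summed FPKM (y axis) of a list of cell type markers in 1 P30 library, for WT and Kdm6b-cKO (cKO); open points are libraries below 1000 FPKM of Rn45s, filled points those above, and the small digits are the library numbers. The sums of the mature oligodendrocyte markers do not overlap (598 to 995 FPKM in WT, 374 to 531 in cKO), while 4 WT libraries lie apart from all others in the GABAergic sum.

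More genes were called lower than higher in Kdm6b-cKO. With limma on log2(FPKM + 0.1), 30 of 13289 genes were called lower, which is 0.226%, and 7 were called higher, which is 0.0527%. A call needed a Benjamini-Hochberg adjusted p under 0.05 over all genes tested and a change of more than 2-fold. At any fold, 38 genes (0.286%) passed downward and 11 (0.0828%) upward. The median difference over all genes tested was -0.05 on the log2 scale, and 54.8% of the genes lay below 0. The 6 libraries of each genotype were fully apart in 140 genes downward (1.05%) and 118 upward (0.888%), and 34 of the 37 called genes were among them. Of the genes called, 4 of 35 with a position lay on chromosome 11, which carries Kdm6b and 8.4% of the tested genes with a position.

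The calls were fragile. Leaving out any one of WT libraries 2, 3 and 5 left 1 gene lower and 1 higher, and leaving out WT library 4 left 2 and 3. The counts were 19 and 6 without WT library 0, and 23 and 8 without WT library 1. Without Kdm6b-cKO libraries 0 to 5 in turn they were 8 and 2, 13 and 4, 33 and 10, 20 and 5, 29 and 5, and 15 and 6. Of the 37 called genes, 31, 24 and 29 were still called without Kdm6b-cKO libraries 2, 3 and 4. A called gene kept its call in 1 to 12 of the 12 fits (median 5), and only Mag and Tmem181b-ps kept it in all 12. With the summed GABAergic markers as a term, limma called 0 genes, the smallest adjusted p was 0.0621, and 1397 genes had an unadjusted p under 0.05. In that fit, on the same libraries that chose them, all 37 called genes kept their sign and had an unadjusted p under 0.05, with medians of -1.43 for those called lower and 1.20 for those called higher.

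**Figure D2:**
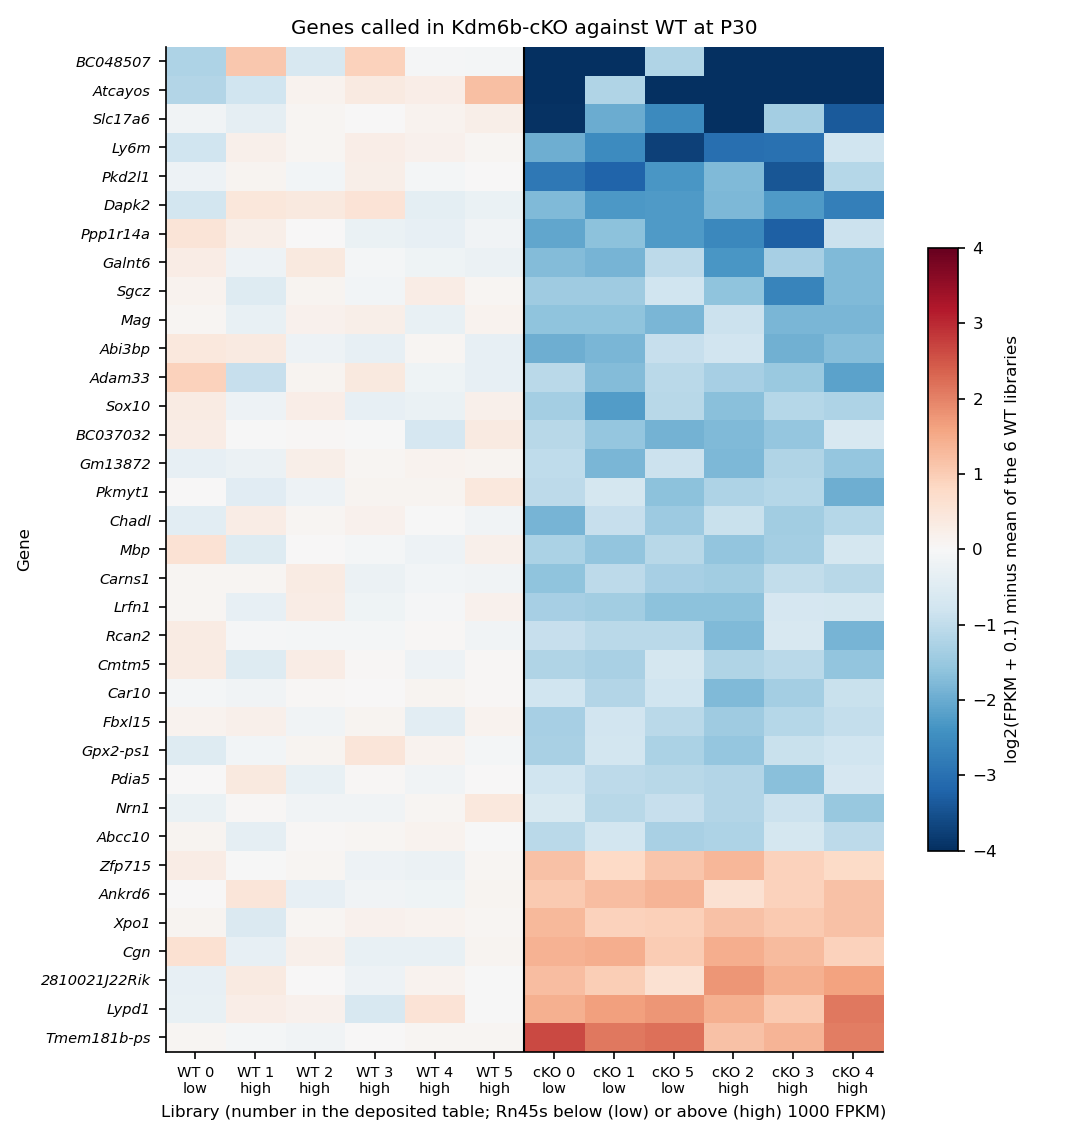
Each cell is log2(FPKM + 0.1) of 1 gene (rows, 35 of the 37 genes called, from the largest fall to the largest rise) in 1 library (columns), minus the mean of the 6 WT libraries; low and high give the Rn45s class, and colours stop at a difference of 4 in either direction. The 28 genes shown that were called lower are blue and the 7 called higher are red across the Kdm6b-cKO columns of both classes.

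Of the mature oligodendrocyte markers other than the myelin genes the study names, 2 of 36 tested were called lower. The share called lower over all genes was 0.226%. Ppp1r14a, which encodes the phosphatase inhibitor CPI-17, ranged from 27.5 to 49.6 FPKM in WT (median 33.5) and from 3.55 to 19.1 FPKM in Kdm6b-cKO (median 7.67). Every Kdm6b-cKO library lay below every WT library, and the log2 difference was -2.11 ± 0.33 (SE, n = 6 and 6, limma adjusted p = 0.0204). Ppp1r14a was called in 7 of the 12 fits that left out 1 library. For scale, the differences of the myelin genes Mag and Mbp were -1.59 ± 0.19 and -1.27 ± 0.20, that of the membrane protein Cmtm5 was -1.17 ± 0.18, and that of Sox10, the transcription factor of the lineage, was -1.46 ± 0.23.

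A further 4 genes called lower, on none of the lists, encode enzymes and matrix proteins. Carns1, carnosine synthase, ranged from 5.37 to 8.00 FPKM in WT (median 6.29) and from 2.01 to 3.15 FPKM in Kdm6b-cKO (median 2.67). The groups were apart, with a log2 difference of -1.24 ± 0.19 (limma adjusted p = 0.0204). Galnt6, which starts mucin-type O-glycosylation, was at 2.08 to 3.22 FPKM (median 2.24) against 0.409 to 1.13 FPKM (median 0.658), a difference of -1.67 ± 0.31 with limma (adjusted p = 0.0408). Chadl, a leucine-rich matrix protein, fell by 1.27 ± 0.21 on the log2 scale, from a mean of 7.66 ± 1.30 (SD, n = 6) to 3.15 ± 0.785 FPKM. Adam33, a membrane metalloprotease, had the widest WT range of these, 9.26 to 33.1 FPKM against 3.93 to 8.33 FPKM, and kept its call in 1 of the 12 fits that left out 1 library.

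Promoter windows of RefSeq (GRCm38.p6, from 250 bases before to 50 after a start) are shown for Ppp1r14a, Galnt6 and Lypd1. Galnt6 was taken as a called gene with the core SOX motif, and Lypd1 as the gene called higher on a neuronal list. Capitals mark ACAAAG or CTTTGT, the same motif read on either strand. At least 1 copy stood in 18.7% of all 32851 windows of the table, in 13.9% of the windows of tested genes, in 5 of 26 windows of 16 genes called lower and in 3 of 10 windows of 6 genes called higher. These shares were taken over windows, and a gene can have several.
Ppp1r14a, chr7:29289070-29289369, plus strand: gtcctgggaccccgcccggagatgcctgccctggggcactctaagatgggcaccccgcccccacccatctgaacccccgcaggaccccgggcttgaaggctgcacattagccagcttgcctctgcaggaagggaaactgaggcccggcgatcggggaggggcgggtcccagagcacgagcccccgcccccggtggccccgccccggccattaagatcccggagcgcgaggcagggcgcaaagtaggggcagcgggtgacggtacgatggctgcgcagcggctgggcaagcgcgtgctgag
Galnt6, chr15:100720428-100720727, minus strand: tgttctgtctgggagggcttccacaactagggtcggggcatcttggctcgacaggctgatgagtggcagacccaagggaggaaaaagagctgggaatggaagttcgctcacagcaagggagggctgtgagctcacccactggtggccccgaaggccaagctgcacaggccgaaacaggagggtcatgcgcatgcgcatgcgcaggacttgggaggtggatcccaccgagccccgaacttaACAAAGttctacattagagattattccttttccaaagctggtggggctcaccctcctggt
Lypd1, chr1:125912879-125913178, minus strand: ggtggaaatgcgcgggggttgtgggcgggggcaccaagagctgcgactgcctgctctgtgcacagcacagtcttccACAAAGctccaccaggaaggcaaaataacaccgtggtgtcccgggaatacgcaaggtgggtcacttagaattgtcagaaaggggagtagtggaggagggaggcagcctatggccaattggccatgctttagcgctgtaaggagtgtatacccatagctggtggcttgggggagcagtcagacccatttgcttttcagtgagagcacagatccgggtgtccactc
The Ppp1r14a window holds 25 CpG and no copy of the motif, and the windows of Galnt6 and Lypd1 hold 10 and 9 CpG and 1 copy each. Galnt6 has 1 further window, with 31 CpG, and Lypd1 has 2, with 12 and 17 CpG, and none of these holds the motif.

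The list of mature oligodendrocyte markers other than the myelin genes that the study names held 40 genes, of which 36 were tested. Of these, 34 lay below 0, 2 were called, Ppp1r14a among them, and the median log2 difference was -0.74 against -0.05 over all genes tested. The summed level was 598 to 995 FPKM in WT and 374 to 531 FPKM in Kdm6b-cKO, with no overlap. Hapln2, the link protein of nodes of Ranvier, was at 18.5 to 65.5 FPKM in WT (median 40.4) and 3.93 to 21.7 in Kdm6b-cKO (median 11.6), a difference of -1.91 ± 0.39 that missed the threshold in limma (adjusted p = 0.0567). Gal3st1, the sulfotransferase of sulfatide synthesis, was at 3.31 to 6.67 FPKM (median 5.6) against 1.08 to 3.03 FPKM (median 2.21), with the genotypes apart and a limma adjusted p of 0.0726. Aspa, which breaks down N-acetylaspartate, and the iron carrier Trf overlapped between the genotypes, with differences of -2.08 ± 0.64 and -1.09 ± 0.39 (limma adjusted p = 0.202 and 0.264).

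Among markers of the earlier stages of the lineage, no gene passed. None of the 13 tested genes of committed and pre-myelinating oligodendrocytes passed, with a median of 0.21, and none of the 17 of oligodendrocyte precursors passed, with a median of -0.07. The summed precursor markers were 94.5 to 117 FPKM in WT and 90.5 to 117 FPKM in Kdm6b-cKO. Pcdh15, a protocadherin of precursors, was at 7.10 to 10.4 FPKM in WT (median 8.72) and 11.4 to 14.8 FPKM in Kdm6b-cKO (median 13.0). Its groups did not overlap, but its difference of 0.58 ± 0.15 did not pass in limma (adjusted p = 0.134). A p that misses the threshold does not show that the earlier stages were alike.

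No astrocyte marker passed, where 0.286% of all genes passed downward and 0.0828% upward, so the count cannot be told from that of other genes. The median over the 21 tested was -0.10, and 15 lay below 0. With the Rn45s class as a term it was -0.336, against -0.0573 over all genes. The summed level overlapped, at 257 to 443 FPKM in WT and 265 to 410 FPKM in Kdm6b-cKO. Slc1a2, the main glutamate transporter of astrocytes, was at 31.5 to 46.4 FPKM in WT (median 39.7) and 23.1 to 35.5 in Kdm6b-cKO (median 30.3), a difference of -0.39 ± 0.15 (limma adjusted p = 0.292). Gm13872, a noncoding transcript annotated on the minus strand at chr2:102578064-102586917 (mm9), lies inside Slc1a2, which is on the plus strand at chr2:102498816-102630941. It was called lower, from 19.3 to 28.3 FPKM (median 25.8) to 6.75 to 13.3 FPKM (median 9.24), by -1.38 ± 0.19 with limma (adjusted p = 0.02). Whether the reads were counted by strand is not given in the sources used here, so reads of the pair cannot be told apart.

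Neuronal genes were called in both directions. Nrn1, the secreted neurite factor neuritin, ranged from 49.2 to 78.6 FPKM in WT (median 57.6) and from 20.7 to 38.2 FPKM in Kdm6b-cKO (median 29.3). Car10, a carbonic anhydrase relative that binds neurexins, ranged from 45.0 to 54.0 FPKM (median 50.2) and from 14.5 to 28.3 FPKM (median 24.3). In both genes the genotypes were apart, by -1.03 ± 0.17 and -1.14 ± 0.17 (limma adjusted p = 0.0226 and 0.0204). Lrfn1, a synaptic adhesion protein, was at 7.13 to 11.1 FPKM (median 9.05) against 2.79 to 5.57 FPKM (median 3.45), or -1.23 ± 0.22. Rcan2, a regulator of calcineurin, was at 4.90 to 6.84 FPKM (median 5.21) against 1.43 to 3.43 FPKM (median 2.53), or -1.22 ± 0.24. The limma adjusted p-values of Lrfn1 and Rcan2 were 0.0306 and 0.0474, and Rcan2 was called in 1 of the 12 fits that left out 1 library.

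The steepest falls among protein-coding neuronal genes were at low levels. Slc17a6, the vesicular glutamate transporter VGLUT2, was at 1.95 to 3.02 FPKM in WT (median 2.64) and at 0 to 0.923 FPKM in Kdm6b-cKO (median 0.254). Pkd2l1, a polycystin channel, was at 2.00 to 2.75 FPKM (median 2.25) against 0.123 to 0.990 FPKM (median 0.304). The log2 differences were -2.98 ± 0.56 and -2.46 ± 0.45 (limma adjusted p = 0.0408 and 0.0339), on a scale with 0.1 FPKM added, and Slc17a6 was called in 2 of the 12 fits that left out 1 library. Slc17a6 is also a thalamic marker. The 11 thalamic markers summed to 71.5 to 107 FPKM in WT and 65.8 to 77.6 FPKM in Kdm6b-cKO, none was at 0 in every library, and of the 9 tested only Slc17a6 passed (median 0.18). With the Rn45s class as a term, 3 of the 9 were called lower, against 2.75% of all genes. They were Slc17a6 (-3.03), the nuclear receptor Rora (-1.45) and Plekhg1 (-1.39), the latter pair named after their values were seen. Rora was at 33.4 to 68.4 FPKM in WT (median 53.3) and 8.53 to 39.2 FPKM in Kdm6b-cKO (median 24.2), and differed by 0.0025 in the libraries below 1000 FPKM of Rn45s and by -2.02 in those above. Plekhg1 stood at 0.246 without the 3 Kdm6b-cKO libraries above that level. The direction of the list depended on the libraries, with 6 of the 9 above 0 without the term and a median of 0.331 with it. The median was -0.428 in the libraries below 1000 FPKM of Rn45s, with 1 WT library, and 0.42 in those above. Over the 2 WT and 6 Kdm6b-cKO libraries above 200 FPKM of summed GABAergic markers it was -0.362. Ntng1, of the same list, was higher without overlap, at 7.10 to 9.76 FPKM in WT and 10.5 to 20.8 FPKM in Kdm6b-cKO. The part of thalamic nuclei in the fall of Slc17a6 was not tested. Sgcz, zeta-sarcoglycan, was at 14.3 to 25.0 FPKM (median 21.5) against 3.15 to 11.7 FPKM (median 7.02), and fell by 1.61 ± 0.26 on the log2 scale (limma adjusted p = 0.0204).

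Abundant synaptic genes passed the adjusted p below the 2-fold limit. Stx1a, the plasma membrane SNARE syntaxin 1A, ranged from 170 to 225 FPKM in WT (median 206) and from 97.8 to 126 FPKM in Kdm6b-cKO (median 105). Slc30a3, which loads zinc into glutamatergic vesicles, ranged from 90.6 to 101 FPKM (median 96.3) and from 47.1 to 63.3 FPKM (median 55.5). Both separated the genotypes without overlap, by -0.89 ± 0.14 and -0.81 ± 0.13 (limma adjusted p = 0.0204 for each). Rprml, a relative of reprimo, was at 107 to 144 FPKM against 58.8 to 108 FPKM, which overlap, and passed at a limma adjusted p of 0.0450. Nrgn, the calmodulin-binding postsynaptic protein neurogranin, and the vesicle SNARE Vamp2 were also apart between the genotypes but did not pass (-0.83 ± 0.17 and -0.69 ± 0.18, limma adjusted p = 0.0536 and 0.134).

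**Figure D3:**
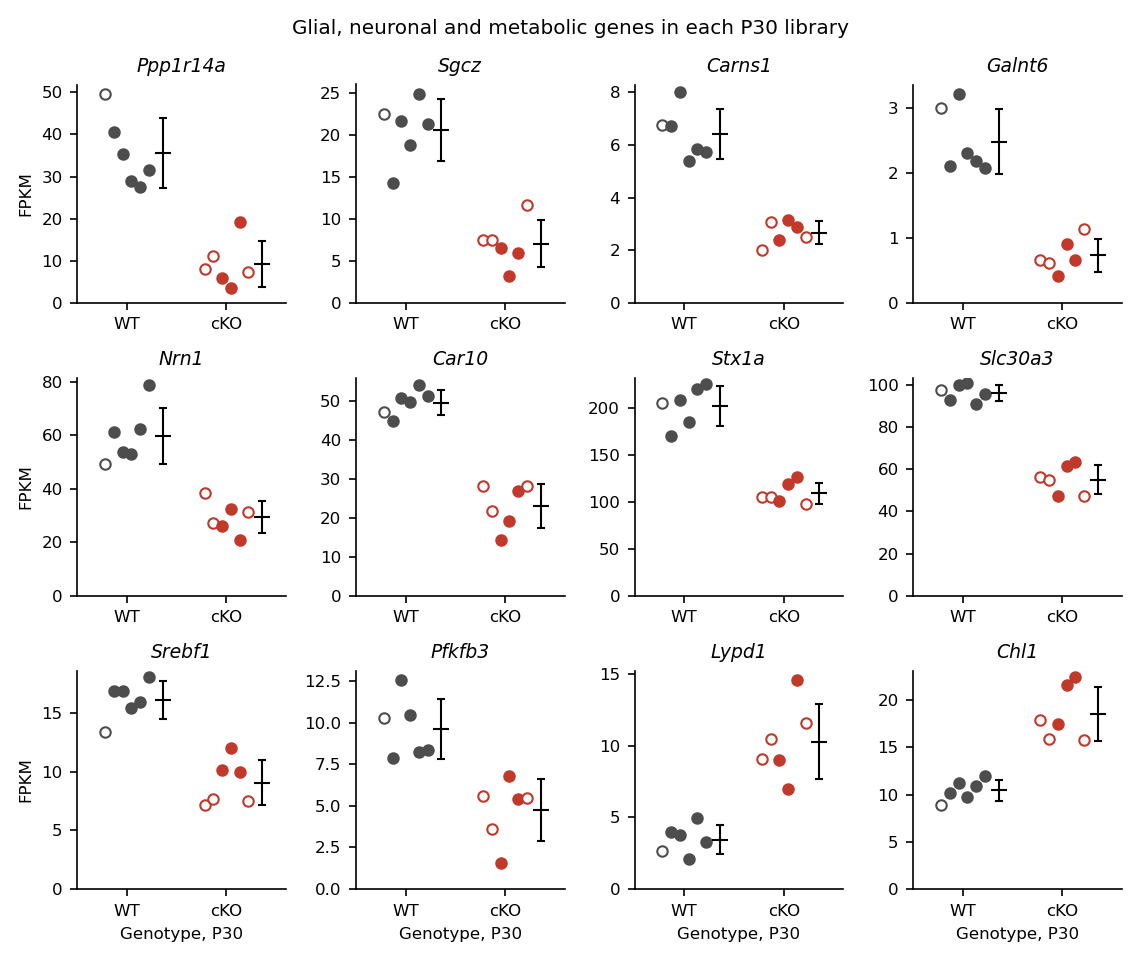
Each point is the FPKM (y axis, linear from 0) of 1 gene in 1 P30 library, for WT and Kdm6b-cKO (cKO); open points are libraries below 1000 FPKM of Rn45s, filled points those above, and bars are the mean and SD of 6 libraries. In all 12 genes shown the genotypes do not overlap, with Lypd1 and Chl1 higher and the other 10 lower in cKO; Pfkfb3 did not pass the adjusted p.

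Of the genes called higher, Lypd1 is the one on a neuronal list. It encodes a Ly6 protein that binds nicotinic receptors, and ranged from 2.08 to 4.96 FPKM in WT (median 3.50) and from 6.97 to 14.6 FPKM in Kdm6b-cKO (median 9.80). The genotypes were apart, by 1.56 ± 0.24 (limma adjusted p = 0.0204), and the call held in 8 of the 12 fits that left out 1 library. Chl1, an adhesion molecule of the L1 family, was at 8.85 to 11.9 FPKM (median 10.5) against 15.8 to 22.4 FPKM (median 17.6), and Pkp4, a junctional plakophilin, at 13.2 to 17.9 FPKM (median 16.1) against 21.7 to 35.3 FPKM (median 28.9). Klhl3, a substrate adaptor of a cullin ubiquitin ligase, was at 18.1 to 27.1 FPKM (median 20.4) against 27.3 to 45.6 FPKM (median 38.1). These 3 genes passed below the 2-fold limit, at differences of 0.81 ± 0.14, 0.85 ± 0.16 and 0.81 ± 0.16 (limma adjusted p = 0.0298, 0.0368 and 0.0450). Wfs1, the endoplasmic reticulum protein wolframin, was at 3.60 to 5.35 FPKM against 6.02 to 8.86 FPKM, apart but without passing (0.81 ± 0.16, limma adjusted p = 0.0536).

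Of the lists of neuronal function, 1 gene was called. Over 8 lists of neuronal function, with 163 genes tested, 1 passed downward (Stx1a) and 1 upward (Lypd1), against 0.286% and 0.0828% of all genes, and the median was -0.01, and 50.9% lay below 0. The 28 glutamate receptor and scaffold genes had a median of -0.01 with 0 passing, the 28 potassium and HCN channel genes a median of -0.13 with 0 passing, and the 19 sodium and calcium channel genes a median of 0.16 with 0 passing. Kcnd3, the channel Kv4.3, was at 2.59 to 4.31 FPKM in WT and 4.34 to 9.30 FPKM in Kdm6b-cKO, and Kcnh1, of the EAG family, at 6.62 to 10.7 and 2.37 to 6.22 FPKM. Their differences of 0.94 ± 0.21 and -0.84 ± 0.24 lay in opposite directions and did not pass (limma adjusted p = 0.0942 and 0.162). The 13 glutamatergic markers had a median of -0.31, of which Slc30a3 passed, and the upper and deep layer markers medians of 0.05 and 0.16, with none passing among 10 and 17. The 23 neuropeptide and neurotrophin genes had a median of 0.42 with none passing, and it was -0.23 over the 2 WT and 6 Kdm6b-cKO libraries above 200 FPKM of summed GABAergic markers. Npy, Sst and Vip are also GABAergic markers, so the latter median depends in part on that choice of libraries.

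Over 7 metabolic lists with 194 genes tested, 1 gene passed downward (Srebf1), against 0.286% of all genes, so the count was near the background. None was called, the median was -0.05, and 59.3% lay below 0 against 54.8% of all genes. Srebf1, the transcription factor of fatty acid synthesis, ranged from 13.4 to 18.0 FPKM in WT (median 16.4) and from 7.16 to 12.0 FPKM in Kdm6b-cKO (median 8.82). The genotypes were apart, by -0.84 ± 0.16 (limma adjusted p = 0.0445), but the adjusted p ranged from 0.0346 to 0.121 in the fits that left out 1 library. Srebf2, its counterpart for cholesterol synthesis, was at 18.9 to 24.9 FPKM (median 23.2) against 6.60 to 21.4 FPKM (median 13.2), which overlap (-0.75 ± 0.25, limma adjusted p = 0.234). The 20 genes of cholesterol synthesis and uptake had a median of -0.16 and the 21 of fatty acid and sphingolipid synthesis a median of -0.01. Fa2h, the hydroxylase of myelin sphingolipids, was at 2.72 to 9.44 FPKM (median 4.12) against 1.00 to 3.66 FPKM (median 2.14), a difference of -1.13 ± 0.41 (limma adjusted p = 0.267).

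On 4 lists of energy metabolism no gene passed, a count that the background share of 0.286% and 0.0828% cannot tell from that of other genes. The medians were -0.04 over 22 genes of glycolysis and lactate transport, -0.10 over 21 of pyruvate and the citrate cycle, -0.01 over 68 nuclear-encoded genes of the respiratory chain and ATP synthase, and -0.13 over 20 of fatty acid oxidation, ketones, glycogen and creatine. Pfkfb3, which makes the activator of phosphofructokinase, was at 7.86 to 12.6 FPKM in WT (median 9.31) and 1.6 to 6.77 FPKM in Kdm6b-cKO (median 5.46). The groups did not overlap, and the difference of -1.11 ± 0.30 did not pass in limma (adjusted p = 0.146). Ndufs8, of complex I, was at 42.7 to 76.0 FPKM (median 64.7) against 21.4 to 49.9 FPKM (median 35.8), or -0.78 ± 0.22 (limma adjusted p = 0.164). The amino acid transporter subunit Slc3a2, enolase Eno1 and glycogen synthase Gys1 overlapped between the genotypes, with differences of -0.67, -0.51 and -0.49.

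**Figure D4:**
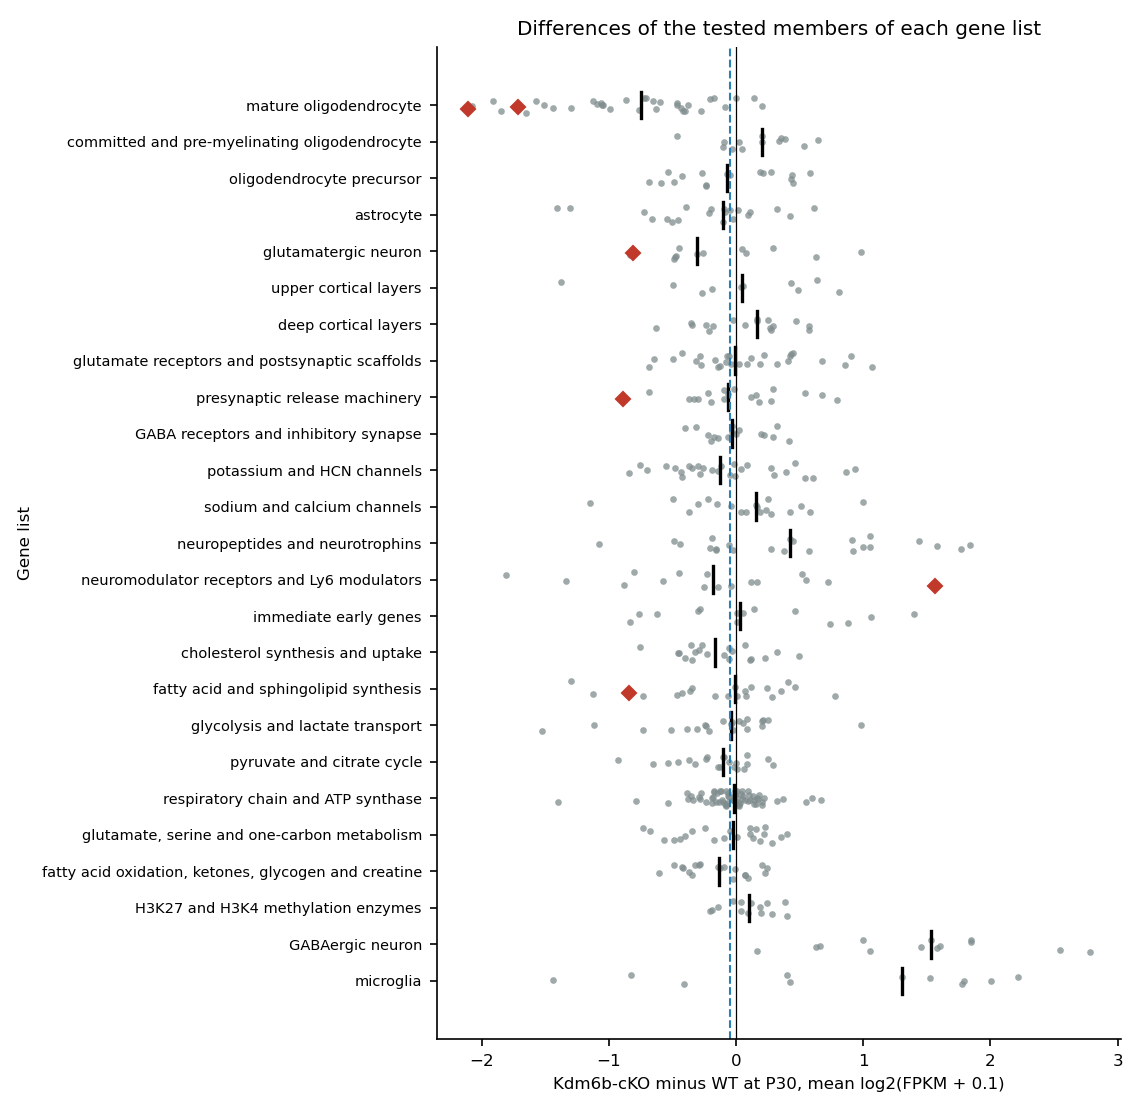
Each point is the Kdm6b-cKO minus WT difference in mean log2(FPKM + 0.1) (x axis) of 1 tested gene of a list (y axis); red diamonds passed an adjusted p under 0.05 in limma, black ticks are list medians and the dashed line is the median of all 13289 genes. Mature oligodendrocyte genes lie to the left (median -0.74), GABAergic and microglial markers to the right (1.54 and 1.30) with no gene passing, and the metabolic lists around 0.

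Among the other genes called lower were kinases and enzymes. Dapk2, a calmodulin-dependent kinase, was at 1.62 to 4.11 FPKM in WT (median 2.92) and 0.329 to 0.744 FPKM in Kdm6b-cKO (median 0.494), or -2.19 ± 0.35 (limma adjusted p = 0.0204). Pkmyt1, which restrains CDK1, Pdia5, a protein disulfide isomerase, and Abcc10, a drug transporter, fell by 1.30, 1.08 and 1.02 on the log2 scale. Fbxl15, an F-box protein, fell by 1.11 ± 0.16 with its call kept in 9 of the 12 fits that left out 1 library, the most after Mag among genes called lower. Abi3bp, a matrix protein, fell by 1.51 ± 0.27, and its call was kept in 2 of those fits. Below the 2-fold limit, the kinases Mapk7 (-0.9995) and Plk3 (-0.73), the GPI transamidase subunit Pigt (-0.95) and the thioesterase Lypla2 (-0.85) passed.

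The largest fitted falls were of genes near the limit of detection. BC048507 was at 1.95 to 10.2 FPKM in WT and listed at 0 in 5 of 6 Kdm6b-cKO libraries, with 2.00 FPKM in library 5. Atcayos was at 1.14 to 6.29 FPKM in WT and listed at 0 in 5 of 6 Kdm6b-cKO libraries, with 1.11 FPKM in library 1. Ly6m was at 2.42 to 5.21 FPKM in WT (median 4.69) and 0.232 to 2.45 FPKM in Kdm6b-cKO (median 0.558), a difference of -2.49 ± 0.44 with limma (adjusted p = 0.0306). Atcayos is named as the opposite strand of Atcay, which was at 33.6 to 42.0 FPKM against 23.5 to 42.5 FPKM and did not pass (-0.25 ± 0.17, limma adjusted p = 0.563). The noncoding BC037032 and the pseudogene Gpx2-ps1 were also called, at -1.42 ± 0.27 and -1.09 ± 0.19, and reads of such copies may have been split with other genes.

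The other 6 genes called higher belong to varied functions. Xpo1, the exportin that carries proteins out of the nucleus, ranged from 11.3 to 19.0 FPKM in WT (median 18.0) and from 32.0 to 41.5 FPKM in Kdm6b-cKO (median 36.4). The genotypes were apart by 1.09 ± 0.15 (limma adjusted p = 0.02). Cgn, the tight junction protein cingulin, was at 2.52 to 4.94 FPKM (median 3.05) against 6.13 to 9.03 FPKM (median 8.27), and Ankrd6, a Wnt pathway protein, at 3.67 to 6.44 FPKM (median 4.43) against 7.06 to 12.0 FPKM (median 10.0). The zinc finger gene Zfp715 rose by 1.02 ± 0.16, and Zfp317 passed below the 2-fold limit at 0.81 ± 0.15. 2810021J22Rik rose by 1.26 ± 0.22. Tmem181b-ps had the largest rise, from 10.2 to 12.0 FPKM (median 11.6) to 25.8 to 71.3 FPKM (median 47.9), or 1.92 ± 0.22 (limma adjusted p = 0.00538). Its near copy Tmem181a was at 8.49 to 14.8 FPKM against 13.0 to 27 FPKM (0.62 ± 0.20, limma adjusted p = 0.223), and how reads were split between the copies was not tested.

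The comparison was then made within the Rn45s classes. All 37 called genes, and all 49 that passed at any fold, had the same sign in the low class (1 WT against 3 Kdm6b-cKO libraries) and in the high class (5 against 3). These genes were chosen on the same 12 libraries, and in 34 of the 37 the genotypes do not overlap, which fixes the sign in any subset, so the sign is no check; the sizes are given as a description. The medians of the genes called lower were -1.43 in the low class and -1.37 in the high class, and those of the genes called higher were 1.19 and 1.34, while the medians over all genes were -0.01 and -0.07. Ppp1r14a differed by -2.50 and -2.13, Stx1a by -0.99 and -0.81, Srebf1 by -0.84 and -0.63, and Lypd1 by 1.92 and 1.46, low class first. Nrn1, at -0.62 and -1.23, was less apart in the low class. The low class rests on 1 WT library. A limma fit with a term for each class and genotype found 7 genes whose genotype difference varied between classes at an adjusted p under 0.05, and none of them was a called gene (smallest adjusted p among those, 0.518).

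**Figure D5:**
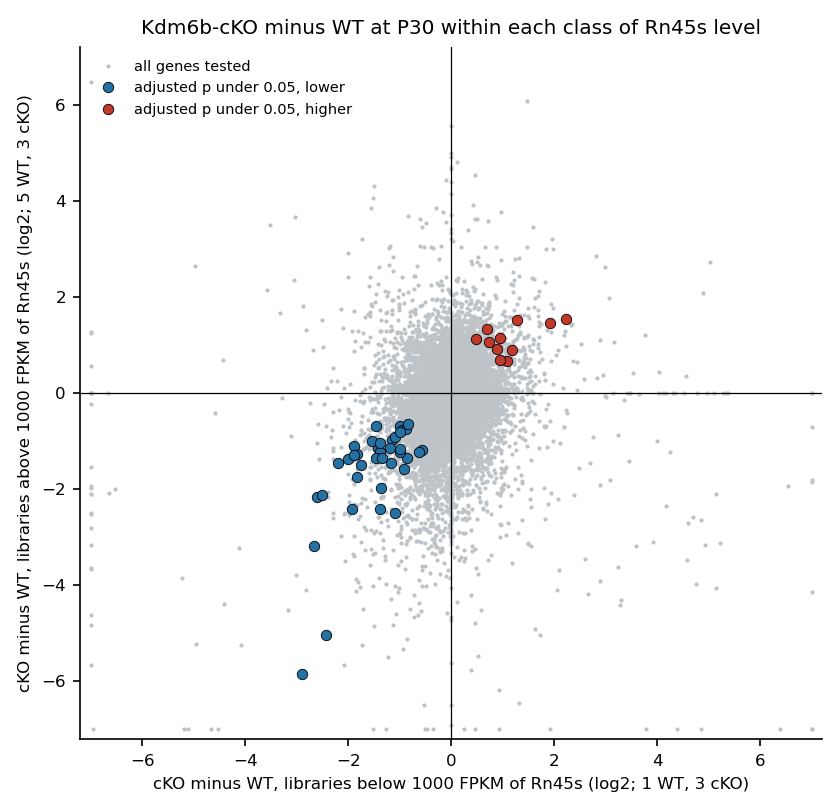
Each point is 1 gene, with its Kdm6b-cKO minus WT difference in mean log2(FPKM + 0.1) in the low class on the x axis and in the high class on the y axis; grey points are all 13289 genes tested, held at the edge of the axes beyond 7, and coloured points the 49 genes that passed an adjusted p under 0.05 over all 12 libraries. All 38 lower genes lie at the lower left of both zero lines and all 11 higher genes at the upper right.

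Some list medians changed sign between the classes. The 13 tested GABAergic markers had a median difference of -0.19 in the low class and 1.72 in the high class, and the 11 microglial markers -0.85 and 1.98. The mature oligodendrocyte list had medians of -1.30 and -1.15, the astrocyte list -0.32 and -0.34, and the precursor list 0.09 and 0.08. Over the 8 libraries above 200 FPKM of summed GABAergic markers, the medians were -0.84 for mature oligodendrocyte genes, -0.08 for GABAergic markers and -0.32 for microglial markers. The GABAergic median there follows in part from choosing the libraries by that sum. In those 8 libraries, a subset of the 12 that chose them, the genes called lower and higher had medians of -1.43 and 1.24.

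With the Rn45s class as a term, limma called 365 genes lower (2.75%) and 185 higher (1.39%), among them all 30 genes called lower without the term and 5 of the 7 called higher. The other 2, Zfp715 and Ankrd6, passed the adjusted p at differences of 0.97 and 0.98, just under the 2-fold limit. Of the 36 mature oligodendrocyte genes, 13 were then called lower and 0 higher, including Aspa (-2.76), Prr5l (-2.20), Hapln2 (-2.15), Car2 (-2.16), Plekhh1 (-1.81), Fa2h (-1.61), Trf (-1.55) and Gal3st1 (-1.40). These sizes depended on the fit. Over all alternative fits, Aspa ranged from -3.24 to -0.753, Trf from -1.55 to -0.496, Fa2h from -1.67 to -0.362 and Hapln2 from -2.15 to -1.42. WT library 0, the only WT library of the low class, held 53.5 FPKM of Trf against 11.2 to 19.9 FPKM in the other WT libraries. Of the 21 astrocyte genes, Gpc5, a glypican, Acsbg1, an acyl-CoA synthetase, and the claudin Cldn10 were called lower, at -1.68, -1.73 and -1.15. All 3 lay below 0 in the fit without the term as well, without passing there, and Cldn10 stood at 0.0156 without the 3 Kdm6b-cKO libraries of the high class.

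The neuronal genes called with the term were mostly higher. Over the 8 lists of neuronal function, 3 genes were called lower and 11 higher, against 2.75% and 1.39% of all genes. The AMPA receptor subunit Gria1 was at 64.1 to 90.3 FPKM in WT (median 78.0) and 84.2 to 237 FPKM in Kdm6b-cKO (median 139). Its difference was 1.13 with the term (limma adjusted p = 0.00470) and 0.85 ± 0.26 without it (adjusted p = 0.208). Shank1, a postsynaptic scaffold, was at 8.71 to 31.0 FPKM (median 21.4) against 20.0 to 108 FPKM (median 34.1), with 1.57 and 1.07. In the high class Gria1 and Shank1 differed by 1.39 and 1.63, and the 3 Kdm6b-cKO libraries there were the shallowest of all. Layer markers were called in both directions with the term. Rorb, of layer 4, was called lower (-1.64, limma adjusted p = 0.0136), at 2.13 to 4.40 FPKM against 0.453 to 2.38 FPKM. Otof (1.01) and Mdga1 (1.08), of the same upper layer list, and Tshz2 (1.01), of the deep layer list, were called higher. In the 3 Kdm6b-cKO libraries of the high class these genes were at 37.5 to 64.8, 14.1 to 21.5 and 46.4 to 70.4 FPKM. In the 3 of the low class they were at 10.5 to 18.2, 6.10 to 7.12 and 16.5 to 25.6 FPKM. The latter lay within the WT ranges of 8.32 to 30.3, 3.26 to 9.97 and 13.4 to 35.5 FPKM.

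With the term, 5 of 194 metabolic genes were called lower and 2 higher, near the 2.75% and 1.39% of all genes. The 5 were Fa2h (-1.61), Gal3st1 (-1.40), Pfkfb3 (-1.19), the fatty acid desaturase Fads1 (-1.11) and Sdhd (-1.54), a subunit of succinate dehydrogenase. The 2 called higher were the sphingomyelin synthase Sgms1 (1.09) and Atp5k (1.04), of the ATP synthase. Without the 3 Kdm6b-cKO libraries above 1000 FPKM of Rn45s, Fads1, Sdhd and Atp5k stood at 0.0349, 0.271 and -0.107, on the other side of 0. Srebf1 stood at -0.69 with the term (limma adjusted p = 0.00763) and Ndufs8 at -0.94 (adjusted p = 0.0145), both under 2-fold.

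Of the genes called with the term, 59 lower and 17 higher also had no overlap between the 6 libraries of each genotype. The noncoding C030018K13Rik had one of the largest falls, from 3.51 to 6.89 FPKM (median 5.03) to 0 to 2.45 FPKM (median 0.303). The Ras association gene Rassf7 was at 1.00 to 3.77 FPKM against 0 to 0.580 FPKM, and Asb11, of the SOCS-box family, at 3.87 to 5.64 FPKM against 0 to 2.40 FPKM. Col23a1, a transmembrane collagen, rose by 1.53 with the term (limma adjusted p = 4.33e-04), from 7.53 to 20.5 FPKM to 22.4 to 50.5 FPKM, and without it by 1.20 ± 0.28 (adjusted p = 0.0942). Gm4988 rose by 1.88 with the term and 1.52 ± 0.31 without it. Slc22a8, an organic anion transporter of the choroid plexus and meninges, was at 0 to 1.43 FPKM in WT and 1.88 to 3.31 FPKM in Kdm6b-cKO, and differed by 0.50 in the low class and 3.63 in the high class.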

How the data were processed

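Sorted cortical nuclei of 6 WT and 6 Kdm6b-cKO libraries at P30 were analysed. Per the submitters' processing notes and the study's methods, the authors aligned reads to mm9 with HISAT2 and used Cuffdiff (versions not given in the sources used here); the deposited FPKM values were further scaled between libraries by the authors. The authors' tables of fold changes, test statistics, p and q values, and the P1 table, were not used, and 0 columns belonged to no sample. Table columns name the genotype but not the replicate. limma 3.58.1 (R 4.3.3; lmFit, eBayes with trend, two-sided) was fitted to log2(FPKM + 0.1) of genes averaging 1 FPKM or more, a scale that understates changes of low genes, with Benjamini-Hochberg adjustment over all 13289. Single genes also had exact permutation tests over 924 splits (smallest p 0.00216), which add nothing where groups do not overlap and are not listed. Depth assumes fragments of 200 bases and 5329 single-transcript genes. On simulated data, 76.5% of 200 genes changed by a log2 of 1.5 were called, with 6 unchanged genes. The simulation drew noise independently for each gene and changed only the more abundant genes. It therefore does not cover differences shared between libraries, such as Rn45s or depth, or genes of low level.

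Members and the 34 gene lists (729 symbols, 1 absent from the table) were chosen with earlier results of these data known. Named by rule were called genes, the 3 smallest p of each list, the 10 largest falls and rises with the Rn45s class as a term, and checks; not all are reported, and some results are not reported here. List members named for passing with that term, Atcay, Tmem181a, Gad1 and Gad2, were chosen after their values were seen. Positions are of GENCODE M1 (mm9), promoters of RefSeq. Alternatives were other pseudocounts, filters, scalings and limma settings, the Rn45s class, leaving out each library and 4 added after seeing the data. Python 3.11.15 with pandas 2.3.3, scipy 1.17.1 and matplotlib 3.10.9 did the rest.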

Additional observations from a re-analysis of the deposited data

Results flagged for a closer look

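Of 74 groups of 6 libraries examined for the called genes, 7 held 1 library far from the others, and chance gives about 1 in 20 groups. Atcayos was at 1.11 FPKM in Kdm6b-cKO library 1 and listed at 0 in the other 5. BC048507 was at 2.00 FPKM in Kdm6b-cKO library 5 and listed at 0 in the other 5. Ly6m was at 2.42 FPKM in WT library 0 against 4.49 to 5.21 FPKM in the others of WT, and at 2.45 FPKM in Kdm6b-cKO library 4 against 0.232 to 1.04 FPKM. Mag, the myelin-associated glycoprotein, was at 34.1 FPKM in Kdm6b-cKO library 2 against 17.4 to 20.4 FPKM, still below every WT library. Rcan2 was at 6.84 FPKM in WT library 0 against 4.90 to 5.61 FPKM. Xpo1 was at 11.3 FPKM in WT library 1 against 17.6 to 19.0 FPKM.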

How the results depend on the processing

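Of 987 recomputed values of the 37 called genes, 653 kept direction and call, 334 kept the direction only and 0 reversed. The counts called lower and higher were 30 and 7. Lower counts that moved by over 1.5 times were 18 with a mean of at least 5 FPKM, 329 with library weights, 365 with the Rn45s class as a term, 443 with the libraries above 1000 FPKM of Rn45s alone, and, added after seeing the data, 202 with the Rn45s level as a term, 0 with the GABAergic level as a term, 253 without the 3 Kdm6b-cKO libraries above 1000 FPKM and 50 without the 2 above 10000 FPKM. Higher counts that moved were 15 with quantile normalization and, in the order above from library weights on, 201, 185, 316, 73, 0 and 111. Leaving out 1 library gave 1 to 33 lower and 1 to 10 higher genes. At a mean of at least 5 FPKM, 8948 genes were tested. Of the 37 called genes 25 remained in that test, and all 25 were still called. The causes of the shifts in the other fits were not tested. Of the other genes named, without the 3 Kdm6b-cKO libraries above 1000 FPKM the differences of Kdm6b, Cldn10, Fads1, Sdhd, Atp5k and Plekhg1 changed sign, to -0.0126, 0.0156, 0.0349, 0.271, -0.107 and 0.246, and those of Sdhd and Plekhg1 were 0.0793 and 0.0312 with library weights. No paired analysis was possible because the table's columns carry a number that cannot be tied to the replicate numbers of the labels. A sex term was not run, since all 12 libraries read as 1 sex. The shallow high-class Kdm6b-cKO libraries limit low genes most, and 1 WT library carries the low class.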

Other observations

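Enzymes of H3K27 and H3K4 methylation, which include the partners and opponents of KDM6B, gave 0 of 14 genes past the threshold, with a median log2 difference of 0.11. Over all genes 0.286% passed downward and 0.0828% upward, so the count cannot be told from that of other genes. Suz12, a core subunit of the Polycomb complex that places the H3K27 mark, was at 5.05 to 7.88 FPKM in WT (median 7.29) and 7.65 to 10.8 FPKM in Kdm6b-cKO (median 9.01), which overlap (0.39 ± 0.16, limma adjusted p = 0.340). The 14 immediate early genes had a median of 0.03, which was 0.70 in the low and -0.74 in the high Rn45s class, and none passed. The 79 cytosolic ribosomal protein genes had medians of -0.16 and 0.40 in the low and high classes, with none passing.

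All 7 tested genes of heat shock and dissection lay above 0 (median 0.44), with none passing, against 0.0828% of all genes upward. Dnajb1, a co-chaperone, was at 4.11 to 9.94 FPKM in WT (median 6.55) and 10.1 to 16.2 FPKM in Kdm6b-cKO (median 12.5), which do not overlap, at a difference of 0.94 ± 0.21 (limma adjusted p = 0.0922). The cannabinoid receptor Cnr1 was at 5.04 to 6.72 FPKM against 6.92 to 14.0 FPKM (0.72 ± 0.19, limma adjusted p = 0.134), and the opioid receptor Oprk1 at 1.07 to 2.82 FPKM against 0.454 to 1.00 FPKM (-1.34 ± 0.35, limma adjusted p = 0.141).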
